A study of Mus musculus with 10 samples.

Results

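The genes described here import proteins into mitochondria and assemble cytochrome oxidase, and they were measured in long-term hematopoietic stem cells (LT-HSCs) of the mouse fetal liver. They were chosen by symbol: every row of the gene table starting with Timm, Tomm or Coa and a number, the assembly factors Cox10 to Cox20, and Chchd4, Samm50, Pam16 and Dnlz. This gave 45 of 17404 rows. Grouped by name and role, 11 were placed with the outer membrane translocase (TOM), 8 with the presequence translocase and its motor (TIM23), 9 with the carrier translocase and its small chaperones (TIM22), 2 with sorting and intermembrane space import and 15 with cytochrome oxidase assembly. LT-HSCs were sorted from livers of C57BL/6 embryos at E14.5, and 1 bulk SmartSeq2 library was made per sample. The 6 KO samples were Tnfrsf11aCre; Spi1f/f and the 4 WT samples Tnfrsf11a+/+; Spi1f/f, so the floxed Spi1 alleles were present in both groups and the groups differed in Cre at the Tnfrsf11a locus. Spi1 encodes PU.1, a factor needed to make macrophages, and Tnfrsf11a is expressed by macrophage precursors, so the model is aimed at the macrophages around the stem cells and not at the stem cells themselves. The samples were separate libraries of each genotype, and the p-values below measure the spread between them. The study describes the controls as littermates, but the labels do not give the litter of a sample, so litter was not in the model.

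Most mitochondrial proteins are made in the cytosol and cross the outer membrane through the TOM pore. From there TIM23 and its motor take proteins with a presequence into the matrix, TIM22 inserts carriers into the inner membrane with the help of small TIM chaperones, Samm50 inserts beta-barrel proteins into the outer membrane, and the oxidoreductase Chchd4 traps small cysteine-rich proteins between the membranes. Cytochrome oxidase, the last enzyme of the respiratory chain, is built by factors that insert its subunits, copper and heme, and several of these are clients of Chchd4. Fetal liver stem cells divide more than adult ones, and mitochondrial activity in stem cells is closely regulated.

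Of the 45 genes, 44 had at least 11 counts in total and were tested, and 13 of them were called lower in KO by the quasi-likelihood test of edgeR (Benjamini-Hochberg adjusted p below 0.1, over all 16725 genes tested). None was called higher, by edgeR or by DESeq2. Over all genes, 2.67% were called lower and 1.32% higher. The 13 were the TOM subunits Tomm5, Tomm6, Tomm20 and Tomm70a, the TIM23 subunits Timm17a and Timm21, Timm22 with the small chaperones Timm8a1, Timm10 and Timm13, the import oxidoreductase Chchd4, and the assembly factors Cox17 and Coa3. Their log2 fold changes ran from -1.40 to -0.72. Of the 44 genes, 39 had a negative log2 fold change, with a median of -0.53, against 0.06 over all genes. At an unadjusted p below 0.05, 24 were lower and 0 higher, beside 10.2% of all genes lower. All 6 KO libraries lay below all 4 WT libraries in CPM (counts scaled to library size with TMM factors) for 12 of the 44 rows, or 11 without the row Timm10b.1, which matches another gene, a state found in 3.48% of all genes. Tomm20l, a relative of Tomm20, had 9 counts in total and was not tested.

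These edgeR calls sat close to the threshold, with adjusted p from 0.0824 to 0.0993, and none of the 44 genes passed at 0.05 by edgeR. The number called was 0 without KO library 15405, 15406, 15411, 15412 or 15415 or without WT library 15416, and 10 to 14 without any 1 of the others. Leaving these libraries out also took the calls over all genes to 0, apart from 1 higher gene without KO 15411, while 1316 to 1663 genes, 18 to 24 of them members, were still lower at an unadjusted p below 0.05 and the median stayed between -0.60 and -0.43. DESeq2, testing for a log2 fold change beyond 0.1, called the same 13 genes, beside 3.29% of all genes lower. Their adjusted p by DESeq2 ran from 0.00162 for Cox17 to 0.0972 for Tomm20, with Coa3 at 0.0281 and Timm21 at 0.0518. In bulk samples, fewer cells of a type and less RNA per cell cannot be told apart.

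Between 5315435 and 30941726 counts per KO library and 7633446 and 18256010 per WT library were assigned to genes. Spi1 was at 9.1 to 101 CPM in KO and 6.22 to 50.1 in WT libraries (log2 fold change 1.31, SE 0.69, adjusted p = 0.337, edgeR), so its RNA did not separate the genotypes. The 8 stem cell markers, among them Kit, Procr and Hlf, were all detected and summed to 519 to 1321 CPM in KO and 411 to 624 in WT, and 3 of them, Cd34, Mecom and Hlf, were called higher. Genes of other cells were present as well. The 10 macrophage markers summed to 141 to 762 CPM in KO and 33.5 to 626 in WT, with Marco at 0 in every KO library. Marco was the 1 macrophage marker called lower, 0 were called higher, and the median log2 fold change of the 10 was -1.50. The 5 endothelial markers summed to 806 to 5722 in KO and 160 to 3607 in WT. The 4 erythroblast markers in the table summed to 151 to 1340 in KO and 158 to 3680 in WT, with a median log2 fold change of -1.42, and 1 of them, Epor, was called lower. None of the other lists held a call. The sums were, for the 5 granule genes, 10.7 to 326 in KO and 5.54 to 1649 in WT (median log2 fold change -2.58), for the 4 megakaryocyte genes 149 to 2423 and 138 to 755, and for the 4 hepatoblast genes 48 to 5504 and 137 to 3726. WT 15416 had the lowest sum of macrophage, endothelial, granule and megakaryocyte markers of all 10 libraries. Xist RNA, made from the inactive X chromosome, was between 73.5 and 129 CPM of all transcript estimates in the 4 WT libraries, at 381 and 332 in KO 15406 and 15409, and at 2.4 or less in the 4 other KO libraries. The part of these markers in the differences below was not tested, apart from Xist.

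**Figure D1:**
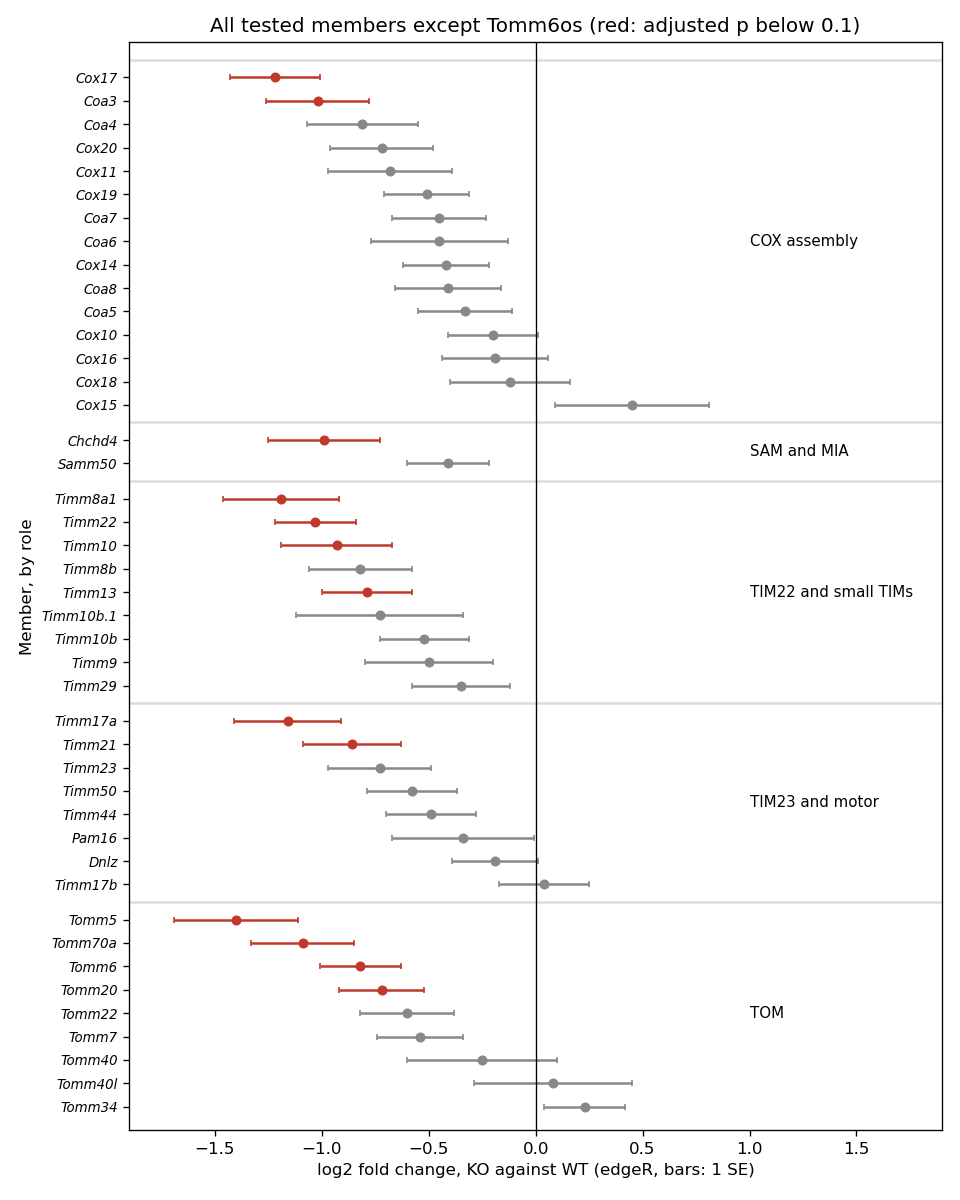
Log2 fold changes of the tested genes, KO (n = 6) against WT (n = 4), with 1 standard error, grouped by role from TOM at the bottom to cytochrome oxidase assembly at the top. Red points are the 13 genes called lower, and Tomm6os is left out because its standard error is 1.11. Most points lie left of 0, while Cox15, Tomm34, Tomm40l and Timm17b lie right of it.

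Promoter sequences from RefSeq (GRCm38.p6, 250 bases before to 50 after a start) were found for 38 of the 45 genes, taking for each the start nearest to that of its most abundant transcript. This start lay within 50 bases for 28 of them and over 1000 bases away for 2, Timm17a and Timm17b. They were searched on both strands for the cores bound by 3 factors known for nuclear genes of mitochondria: GCGCATGCG for NRF1, CCGGAAG for ETS factors such as GABP, and AAGATGGCG for YY1. The NRF1 core can match both strands at the same place, and the ETS core ends in the letters that open the YY1 core. The ETS core was present in 16 of the 38 promoters (42.1%), against 8.86% of all 32851 promoters and 14.1% of the promoters of tested genes. This core was also in 12 of 25 promoters of other import and assembly genes, compared further below, so its share was not particular to the members. It was in 2 of the 11 promoters of genes called lower, those of Timm10 and Tomm70a, and in 14 of the 27 others. The windows of these groups were not equally well placed. The start lay over 50 bases away for Chchd4, Coa3, Timm8a1, Timm13, Timm17a, Tomm6 and Tomm20 among the called genes. Among the others this held only for Coa4, Timm10b and Timm17b, so the shares of called and other genes cannot be compared directly. The NRF1 core was in 1 of the 38, that of Timm13 (2.63%), against 1.75% of all promoters and 2.93% of those of tested genes. Its share rests on 1 promoter and lay near that of tested genes. The YY1 core was in the promoters of Cox10 and Timm50 (5.26%), against 1.4% of all promoters and 2.35% of those of tested genes. Of the 25 promoters of other import and assembly genes, 4 held the YY1 core and 1 the NRF1 core. Shown here, with the cores in capitals, are the promoters of the 3 genes called lower that hold a core, beside Tomm22, which holds several and was not called, and Cox10, which holds 2 kinds. Each is written 5′ to 3′ on the strand of its gene. Tomm70a is at chr16:57121464-57121763 (plus strand), Timm10 at chr2:84826771-84827070 (plus), Timm13 at chr10:80900920-80901219 (minus), Tomm22 at chr15:79670618-79670917 (plus) and Cox10 at chr11:64079423-64079722 (minus).
Tomm70a: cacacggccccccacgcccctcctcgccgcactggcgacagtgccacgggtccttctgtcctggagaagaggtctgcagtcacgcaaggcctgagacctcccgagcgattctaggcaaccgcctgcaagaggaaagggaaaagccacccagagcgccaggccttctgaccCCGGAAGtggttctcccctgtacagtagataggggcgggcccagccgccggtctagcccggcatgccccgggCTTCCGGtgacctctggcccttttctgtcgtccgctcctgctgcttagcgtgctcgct
Timm10: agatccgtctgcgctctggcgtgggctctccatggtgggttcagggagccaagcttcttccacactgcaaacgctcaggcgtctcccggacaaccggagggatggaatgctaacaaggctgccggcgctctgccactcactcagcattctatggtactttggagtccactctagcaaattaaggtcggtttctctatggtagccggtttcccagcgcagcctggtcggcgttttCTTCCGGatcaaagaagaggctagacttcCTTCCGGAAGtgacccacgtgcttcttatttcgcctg
Timm13: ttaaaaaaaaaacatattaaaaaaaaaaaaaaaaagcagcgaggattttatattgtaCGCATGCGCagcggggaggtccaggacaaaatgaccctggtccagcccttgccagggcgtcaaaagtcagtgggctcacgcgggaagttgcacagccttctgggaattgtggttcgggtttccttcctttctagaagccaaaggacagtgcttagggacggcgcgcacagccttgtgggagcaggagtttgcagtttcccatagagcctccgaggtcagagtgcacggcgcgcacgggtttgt
Tomm22: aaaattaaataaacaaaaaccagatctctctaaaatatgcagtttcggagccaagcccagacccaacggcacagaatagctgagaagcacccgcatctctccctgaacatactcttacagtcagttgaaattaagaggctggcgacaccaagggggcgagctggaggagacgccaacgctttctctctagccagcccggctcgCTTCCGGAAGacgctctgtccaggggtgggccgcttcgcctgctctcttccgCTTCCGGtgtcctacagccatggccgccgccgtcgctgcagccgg
Cox10: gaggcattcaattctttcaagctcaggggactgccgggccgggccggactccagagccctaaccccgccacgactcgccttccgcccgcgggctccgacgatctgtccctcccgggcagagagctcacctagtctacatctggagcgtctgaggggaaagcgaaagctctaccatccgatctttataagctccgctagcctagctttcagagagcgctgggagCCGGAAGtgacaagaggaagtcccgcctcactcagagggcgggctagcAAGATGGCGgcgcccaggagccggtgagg

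Of the 10 Tomm genes tested, 4 were lower, 0 were higher, and the median log2 fold change was -0.57. Without the antisense RNA Tomm6os and the cytosolic Tomm34, which are not subunits of the complex, 4 of 8 were lower and the median was -0.66. Tomm5, a small subunit that stabilizes the pore, lies on chromosome 4 from 45105208 to 45108114 (GRCm38, Gencode vM21). WT libraries 15416, 15417, 15418 and 15420, the order used for all WT values here, held 521, 186, 157 and 288 CPM of Tomm5. In KO it ran from 82.8 to 130 CPM with a median of 110. The groups did not overlap, and the WT spread came largely from 15416. The log2 fold change of Tomm5 was -1.40 (SE 0.29, adjusted p = 0.0824, edgeR), or -0.95 without WT 15416. Tomm70a encodes the receptor that hands carrier proteins from cytosolic chaperones to the pore, and lies on chromosome 16 from 57121703 to 57156705. Its WT values were 169, 105, 99.3 and 191 CPM, and the KO libraries ran from 48.2 to 83 CPM around a median of 64.9, without overlap. Tomm70a thus differed by a log2 fold change of -1.09 (SE 0.24, adjusted p = 0.0824, edgeR).

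Tomm6, another small subunit, lies on chromosome 17 from 47686646 to 47688386. It was at 254, 158, 159 and 235 CPM in WT, and between 95.2 and 131 CPM in KO with a median of 116. Again no KO library reached the lowest WT library (log2 fold change -0.82, SE 0.19, adjusted p = 0.0824, edgeR). Tomm6 shares 76% of its exonic bases with Gm21981 on the same strand and 19.4% with its antisense gene Tomm6os, so its counts depend on how reads were split among them. Tomm6os itself was near the detection limit, with at most 1.18 CPM. Tomm20, the receptor for presequences, ranged from 101 to 122 CPM in KO and from 126 to 275 in WT, a log2 fold change of -0.72 (SE 0.20, adjusted p = 0.0993, edgeR), or -0.46 without WT 15416. Tomm22, the central receptor, and the small subunit Tomm7 had log2 fold changes of -0.60 and -0.54 and did not pass (adjusted p = 0.169 and 0.175, edgeR). For the pore itself, Tomm40, the value was -0.25 (SE 0.35, adjusted p = 0.755, edgeR). Tomm40 was at 251, 231, 252 and 66.4 CPM in WT, so 1 library, 15420, lay far below the other three, and KO ran from 90.2 to 233. Its relative Tomm40l and the cytosolic cochaperone Tomm34 had values of 0.08 and 0.23. Tomm40l shares 64.3% of its exonic bases with Nr1i3 on the opposite strand, and the counting is not stated to use strand.

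**Figure D2:**
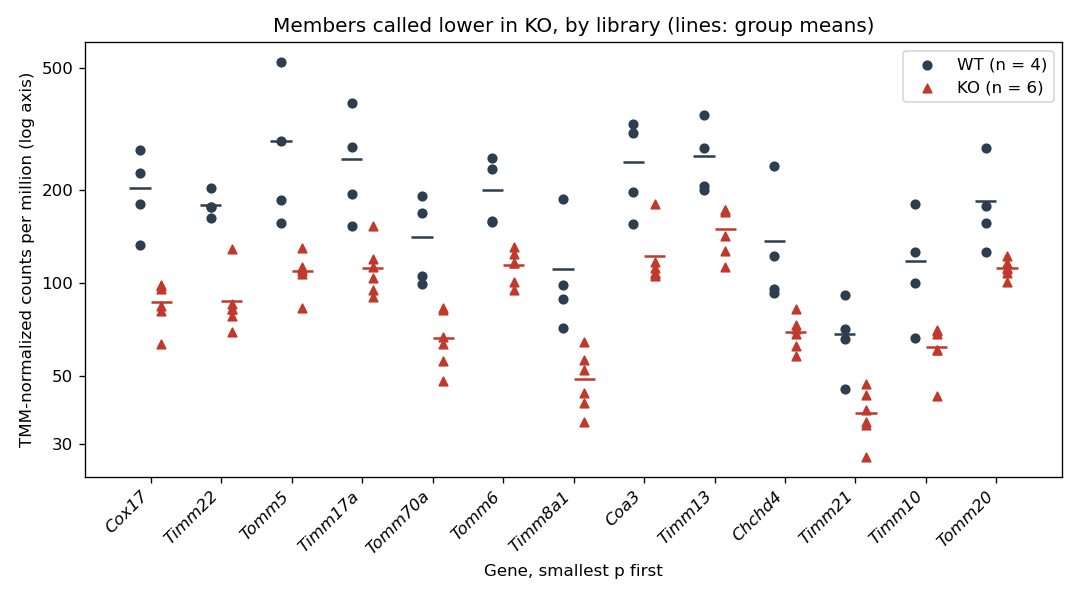
TMM-normalized CPM of the 13 genes called lower, on a log axis, for each WT library (dark circles) and KO library (red triangles), with group means as lines. KO and WT do not overlap for 10 of the 13, and the highest WT point of Tomm5, at 521 CPM, is library 15416.

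In the TIM23 group, 2 of 8 genes were lower, 5 were lower at an unadjusted p below 0.05, and the median was -0.54. Timm17a, a core subunit next to the channel, lies on chromosome 1 from 135295213 to 135313778. It was at 277, 195, 153 and 383 CPM in WT, while the KO libraries ran from 89.7 to 153 CPM with a median of 109. The highest KO library, 15409, lay just under the lowest WT library, 15418. The log2 fold change of Timm17a was -1.16 (SE 0.25, adjusted p = 0.0824, edgeR). Its X-linked relative Timm17b, which can take its place in the translocase, was at 72.3, 72.4, 106 and 51.8 CPM in WT and 70.7 to 92.7 in KO, a log2 fold change of 0.04 (SE 0.21, adjusted p = 0.933, edgeR). The ratio of Timm17a to Timm17b CPM was therefore 3.84, 2.69, 1.44 and 7.39 in WT and 1.15 to 2.13 in KO, with a median of 1.34. These ratios overlap through WT 15418, and the pair was singled out after its values were seen, so no test was run on it. Of the estimated Timm17a counts, 40.2% to 51.6% per library were on protein-coding transcripts and the rest on transcripts annotated otherwise, such as a retained intron. The protein-coding part was at 123, 92.2, 61.6 and 174 CPM in WT and 44.7 to 74.4 in KO, and the other part at 154, 102, 91.6 and 208 in WT and 45 to 78.1 in KO, so the groups separated in the other part and overlapped in the protein-coding part.

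Timm21, which couples TIM23 to respiratory chain assembly, was at 91.5, 65.8, 45.3 and 70.8 CPM in WT and 27.2 to 47.1 in KO, with a median of 37. The groups overlapped in KO 15409 and WT 15418 (log2 fold change -0.86, SE 0.23, adjusted p = 0.0905, edgeR). The channel Timm23 and the presequence receptor Timm50 had log2 fold changes of -0.73 and -0.58, and Timm44, which anchors the motor, one of -0.49. These 3 were lower at an unadjusted p below 0.05 and missed the adjusted threshold, and without WT 15416 their values were -0.42, -0.44 and -0.23. Pam16, a regulator of the motor, and Dnlz, which keeps the motor's Hsp70 soluble, had values of -0.34 and -0.19. Pam16 shares 18.7% of its exonic bases with Glis2 on the opposite strand.

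All 9 rows of the TIM22 group had negative values, with a median of -0.79, and 4 were lower. Without the row Timm10b.1, whose estimates match another gene, these were 4 of 8 with a median of -0.80. Timm22, the channel that inserts carriers, lies on chromosome 11 from 76406952 to 76416292. Its WT libraries were close together, at 203, 163, 176 and 176 CPM, and the KO libraries ran from 69.1 to 129 CPM with a median of 82.1. No KO library reached a WT library, and 15409 was the highest of them, the next being at 85.4 CPM. The log2 fold change of Timm22 was -1.03 (SE 0.19, adjusted p = 0.0824, edgeR), and -0.97 without WT 15416. Timm29, a partner of Timm22, had a value of -0.35 (SE 0.23, adjusted p = 0.434, edgeR).

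The small TIMs carry hydrophobic proteins across the intermembrane space, Timm9 together with Timm10, and Timm8a1 together with Timm13. Timm8a1, the X-linked counterpart of the human deafness-dystonia gene, lies on chromosome X from 134537256 to 134541865. It was at 187, 88.8, 71.3 and 98.5 CPM in WT and 35.3 to 64.2 in KO around a median of 48.1, without overlap (log2 fold change -1.19, SE 0.27, adjusted p = 0.0824, edgeR). For Timm13, on chromosome 10 from 80899450 to 80900969, WT libraries held 351, 201, 206 and 274 CPM and KO libraries 113 to 173 with a median of 156, again apart (-0.79, SE 0.21, adjusted p = 0.0877, edgeR). Both partners of this pair were thus lower. Timm10, on chromosome 2 from 84826997 to 84830213, was at 180, 66.1, 99.6 and 126 CPM in WT and 42.9 to 70.2 in KO with a median of 64.4. WT 15417 lay inside the KO range (log2 fold change -0.93, SE 0.26, adjusted p = 0.0932, edgeR). Its partner Timm9 had a value of -0.50 (SE 0.30, adjusted p = 0.392, edgeR), which was -0.09 without WT 15416. Timm8b and Timm10b had values of -0.82 and -0.52 and were lower only at an unadjusted p below 0.05. A row named Timm10b.1 matched the estimates of Gm45799, a gene that shares 86% of its exonic bases with Dnhd1 and 9.34% with Timm10b. It was at 3.19 to 14.2 CPM in KO and 14.6 to 16.7 in WT (-0.73, SE 0.39, adjusted p = 0.34, edgeR) and is not a measure of Timm10b alone.

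Chchd4, on chromosome 6 from 91462172 to 91473546, was at 240, 122, 95.8 and 92.6 CPM in WT and 58.1 to 82.2 in KO with a median of 69.6. The groups did not overlap (log2 fold change -0.99, SE 0.26, adjusted p = 0.0877, edgeR), and the value was -0.58 without WT 15416. Samm50, the core of the sorting machinery, had a value of -0.41 (SE 0.19, adjusted p = 0.272, edgeR).

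Among the 15 assembly factors of cytochrome oxidase, 2 were lower, 6 were lower at an unadjusted p below 0.05, and the median was -0.45. Cox17, the copper chaperone that supplies both copper sites and a client of Chchd4, lies on chromosome 16 from 38346991 to 38352763. WT libraries held 270, 133, 180 and 228 CPM, and KO libraries 63.5 to 98.7 with a median of 89.7. The highest KO library stayed well below the lowest WT library. Cox17 had the smallest p of the 44 genes (7.32e-05), with a log2 fold change of -1.22 (SE 0.21, adjusted p = 0.0824, edgeR). Coa3, which stabilizes the newly made catalytic subunit, lies on chromosome 11 from 101277968 to 101279114. Its WT values were 307, 197, 155 and 328 CPM, and KO ran from 105 to 181 with a median of 110. Here KO 15409 rose above WT 15418, and the other 5 KO libraries, at 117 CPM or less, did not (log2 fold change -1.02, SE 0.24, adjusted p = 0.0824, edgeR). Cox14, which acts with Coa3 on the same subunit, had a value of -0.42 (SE 0.20, adjusted p = 0.273, edgeR).

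The other assembly factors did not pass. Cox11 and Cox19, which act in copper delivery, had log2 fold changes of -0.68 and -0.51, Cox20 and Cox18, which handle the second subunit, -0.72 and -0.12, and Coa4, a protein with paired cysteines, -0.81. Of these, Coa4, Cox20, Cox19 and Cox11 were lower at an unadjusted p below 0.05, and the KO and WT libraries of Cox20 did not overlap (18.3 to 22.9 against 24.3 to 48.3 CPM). Cox20 shares 91.1% of its exonic bases with Hnrnpu and Cox11 48.3% with Tom1l1, in each case on the opposite strand, so part of their counts cannot be assigned. Heme is prepared by Cox10 and Cox15. Cox10 had a value of -0.20 (SE 0.21, adjusted p = 0.654, edgeR). For Cox15 the value was 0.45 (SE 0.36, adjusted p = 0.542, edgeR), the highest of all 44, with 37.8, 30.6, 34.8 and 10 CPM in WT and 23.7 to 55 in KO. Coa5, Coa6, Coa7, Coa8 and Cox16 had values between -0.45 and -0.19. Cox16 shares 56.8% of its exonic bases with Gm20498.

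The 10 libraries differed in the level of these genes as a group. For the 43 genes counted in every library, the median deviation of log2 CPM from the mean of the 10 libraries lay between -0.39 and -0.08 in KO libraries and between 0.13 and 0.81 in WT libraries. Summed over the tested members, CPM ran from 2880 to 3532 across KO libraries, and the WT sums were 6744, 4255, 4200 and 5007. WT 15416 held the highest value of 28 of the 43 genes, and WT 15420 that of 9. Without WT 15416, the log2 fold changes of 36 of the 44 tested genes, including all 13 called, came nearer to 0, and 20 moved by over 1.5 times, of which Chchd4 and Tomm20 were among the 13. The order was not the same for every gene: WT 15420 held the lowest value of 4, Tomm40, Tomm40l, Cox15 and Timm17b. The spread was wider in WT, with a median SD of 29.9% of the mean against 17.8% in KO, and it was wider in WT for 35 of the 43.

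**Figure D3:**
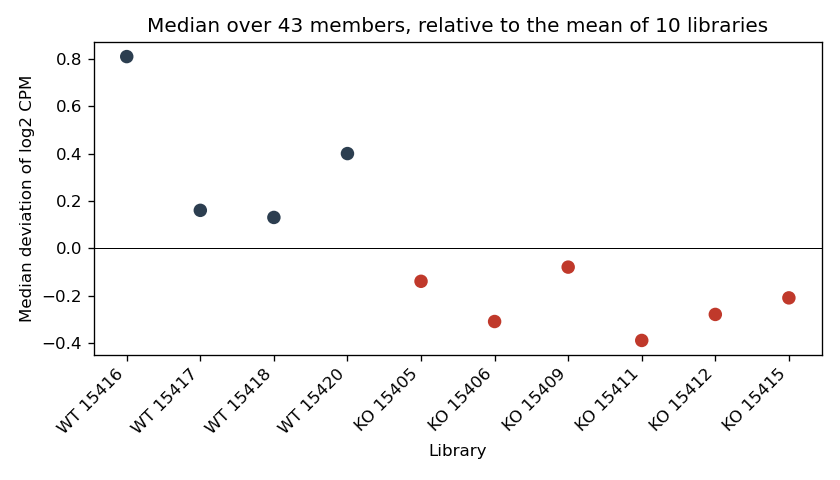
Median deviation of log2 CPM over the 43 genes counted in all libraries, for the 4 WT (dark) and 6 KO (red) libraries. All WT libraries lie above 0 and all KO libraries below it, and WT 15416 stands highest, at 0.81.

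Transcript length moved with the difference between the groups over all genes. Genes were divided into 5 classes of equal size by their mean transcript length, taken over all annotated transcripts without regard to their level. In the class of the shortest (62 to 1152 bases), the median log2 fold change was -0.25 and 6.92% were called lower, and in the class of the longest the values were 0.33 and 0.492%. Of the 44 members, 24 fell in the shortest class, where their median was -0.59, and 34 were shorter than the median gene. By this mean, the longer members called lower include Tomm70a, in the longest class, and Chchd4, Timm17a and Tomm20, in the class next to it. Most of the TPM of Tomm20 (89.9%) was on a transcript of 458 bases, however, and most of that of Timm17a (74.5%) on one of 565 bases. For these genes the mean, also used for the offset below, does not describe the transcript with most of the TPM. The offset acts on counts, and the shares of counts by transcript length were not compared. With an offset for transcript length in each library, no gene of the 16725 was called by edgeR, in either direction, and 1566 were lower at an unadjusted p below 0.05. The median of the members was then -0.37, with 37 of 44 values negative and 16 lower at an unadjusted p below 0.05, against a median of 0.00 over all genes. All 13 genes called before kept a negative value, 12 of them at an unadjusted p below 0.05. Timm13 went from -0.79 to -0.40, Coa3 from -1.02 to -0.58 and Tomm5 from -1.40 to -0.98, while Tomm70a went from -1.09 to -1.46, Chchd4 from -0.99 to -1.23 and Tomm20 from -0.72 to -0.95. The smallest adjusted p of a member under the offset was 0.109.

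**Figure D4:**
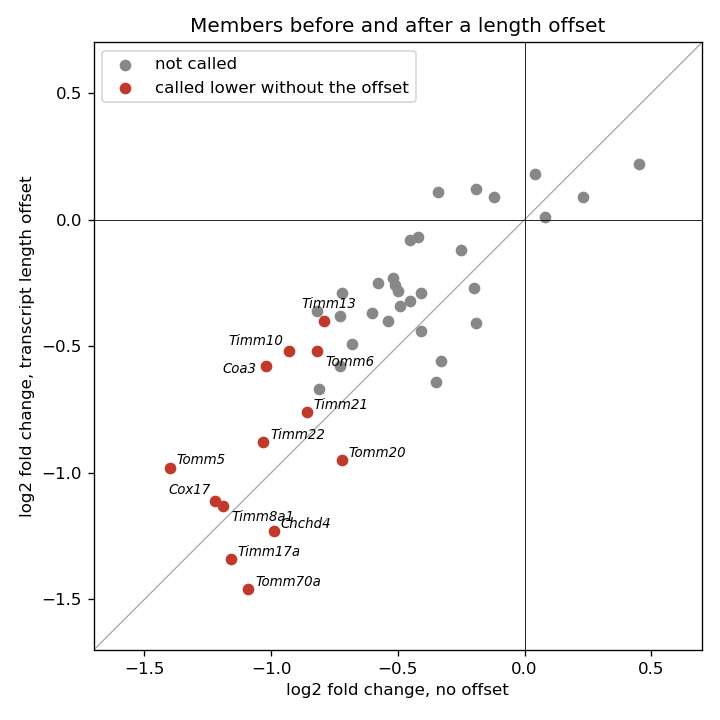
Log2 fold changes, KO against WT, of the tested genes except Tomm6os without (x axis) and with (y axis) an offset for transcript length. Red points are the 13 genes called lower without the offset, and the diagonal marks equal values. All red points lie below 0 on both axes, those above the diagonal having moved toward 0 and those below it, such as Tomm70a, away from 0.

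The labels give no sex, and Xist was high in all WT and in 2 KO libraries. With the log2 level of Xist in the model, no gene of the 16725 was called by edgeR. At an unadjusted p below 0.05, 1532 genes and 18 of the members were lower, and the median of the members was -0.59. Both KO libraries with high Xist lay below every WT library for 10 of the 13 genes called lower, and the 4 KO libraries with low Xist did so for 12. These 13 genes were called from the same libraries, and for 10 of them all KO libraries lay below all WT libraries. The counts by Xist level therefore follow largely from that choice and are no separate test. With the 6 libraries of high Xist alone, 2 KO and 4 WT, a choice made after seeing the data, no gene was called by edgeR, 456 genes and 7 of the members were lower at an unadjusted p below 0.05, and the median of the members was -0.57.

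Levels can be compared between genes only per length, by the deposited TPM values summed over the transcripts of a gene. In WT, Cox17 (422 ± 148 TPM, SD, n = 4), Tomm5 (410 ± 251), Timm13 (391 ± 125) and Timm17a (305 ± 132) stood highest, and these neighbours did not differ beyond their spread. Most of the Timm17a TPM (74.5%) was on a retained-intron transcript of 565 bases. The receptor Tomm20 was at 196 ± 79.3 TPM and the pore Tomm40 at 112 ± 55, the channels Timm23 and Timm22 at 237 ± 100 and 60 ± 12.3, and Samm50 at 127 ± 42.1. Chchd4 (33.8 ± 18.9), Tomm70a (30.6 ± 11.4) and the heme factors Cox10 (25.3 ± 4.65) and Cox15 (4.75 ± 2.23) were low. On this scale, a view added after seeing the data, the median log2 ratio of mean TPM, KO to WT, was 0.47 over all genes and -0.12 over the members, with 41 of 44 below the median gene. Mean TPM was lower in KO for 30 of the 44 and for all 13 called genes, but only Cox17 kept all KO libraries (190 to 267 TPM) below all WT libraries (284 to 595). On this scale, 0.148% of 15878 genes were in that state.

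Other genes of the same pathways, 16 of import and 11 of cytochrome oxidase assembly, were compared in the same fit. Of the 26 tested, 2 were lower and 0 higher, or 7.69% against the 2.67% of all genes, and 23 had negative values, with a median of -0.54. The 2 were Dnajc19, a partner of the import motor (51.9 ± 7.23 CPM in KO, SD, n = 6, and 101 ± 32.7 in WT, n = 4, log2 fold change -0.95, adjusted p = 0.0824, edgeR), and Surf1, which takes part in the assembly of the catalytic subunit (32.2 ± 6.42 and 58.9 ± 19.5 CPM, -0.87, adjusted p = 0.0974, edgeR). The motor's Hsp70, Hspa9, and its exchange factor Grpel1 had values of -0.59 and -0.81 and did not pass (adjusted p = 0.188 and 0.117, edgeR). DESeq2 with the fold-change threshold called 5 of the 26 lower. The copper proteins Sco1 and Sco2 had values of -0.52 and 0.71, and Sco2 was at most at 17.7 CPM. Pet117 was not tested here.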

How the data were processed

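The authors made SmartSeq2 libraries from RNA of sorted LT-HSCs, read them from 1 end, and ran bcl2fastq 2.20 and then Kallisto 0.44.0 against Gencode vM16 (mm10, GRCm38), as their notes and methods give it. The deposited transcript tables hold estimated counts, not normalized, and TPM, scaled by the authors for effective length. The deposited gene table holds whole counts, the estimated counts summed by symbol. For all 45 members these sums lay within 1.01 counts of the table in every library. No other columns of samples were present.

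The 16725 genes whose counts summed to 11 or more were tested for KO against WT after TMM scaling by edgeR (4.0.16, R 4.3.3), using glmQLFit with the robust option and glmQLFTest. The adjusted p (Benjamini-Hochberg) had to be below 0.1. The study's test, DESeq2 (1.42.0 here), was an alternative. Other alternatives were size factors, filters, Xist as a covariate, offsets by loess (span 0.3) for transcript length or GC content, and each library left out. The script was tested on simulated data. Standard errors come from the F statistic. The reads carry no molecular identifiers. Positions and overlaps are from Gencode vM21 on the same build, a later release. The members, the lists and the naming rule were chosen with earlier results of these data known. By that rule, values per library are given for up to 12 genes past the threshold, smallest p first, and others were named by role. Protein sequences were not used here. Figures were drawn with matplotlib 3.10.9.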

Additional observations from a re-analysis of the deposited data

Results flagged for a closer look

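In 6 cases, 1 library lay far from the others of its group by Dixon's test at 95%, among 88 groups examined (44 genes in KO and in WT), where chance gives about 1 in 20. KO 15409 was the highest KO library for Coa3, at 181 CPM against 105 to 117 in the others, and for Timm22, at 129 CPM against 69.1 to 85.4. Both genes were called lower in KO, and 15409 is thus the KO library nearest to WT for them. KO 15411 was the lowest for Timm10, at 42.9 CPM against 60.5 to 70.2. KO 15405 was the highest for Timm9, at 40 CPM against 24.5 to 29.9. WT 15420 was the lowest for Tomm40, at 66.4 CPM against 231 to 252. KO 15415 was the highest for Tomm6os, at 1.18 CPM against 0.0309 to 0.366, near the detection limit.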

How the results depend on the processing

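The 13 genes called lower in KO became 22 by DESeq2 without a fold-change threshold. By edgeR they were 0 with an adjusted p below 0.05 or with Xist as a covariate. They were also 0 by edgeR with the transcript length offset or in the libraries with high Xist alone. They were 0 to 14 with each library in turn left out, and 11 to 15 under the other alternatives. No member was called higher under any of them. For the 12 genes with values per library, 264 log2 fold changes under 22 alternatives were all negative, and 148 kept an adjusted p below 0.1. The median of the members, -0.53, was -0.59 to -0.37 in the other fits and -0.62 to -0.43 with a library left out, and -0.12 as a ratio of mean TPM, tried after seeing the data. The cause was not tested. The 2 other pathway genes called lower became 5 by DESeq2 with the fold-change threshold and 10 without it. By edgeR they were 1 after upper-quartile normalization, 1 with genes of at least 1 count and 4 with 11 counts in 1 library. They were 7 by filterByExpr, 1 without robust estimation and 7 with the GC offset. Also by edgeR, they were 0 with an adjusted p below 0.05, the Xist covariate, the length offset or high Xist alone. With a library left out they were 0 to 6. Over all genes the calls likewise fell to 0 with the Xist covariate and with the length offset. No paired analysis was possible because the labels give neither the litter of a sample nor replicate numbers shared between the groups. Depth limits Tomm6os and Tomm20l, which had 52 and 9 counts in all.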
